A study of Mus musculus with 9 samples.

Results

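Hearts of tumour hosts given ACVR2B/Fc (A + T) were compared with hearts of untreated tumour hosts (T) across all genes, with the 6 of 9 heart mRNA libraries whose labels name these groups. T held animals 11, 12 and 15, labelled splenic HCT116. A + T held animals 20, 21 and 22, labelled splenic HCT116+ACVR2B/Fc. All 6 were NSG males, 8 weeks old at surgery, when HCT116 cells, a human colorectal cancer line, were injected into the spleen so that they seed the liver. The hearts were taken 25 days after surgery. ACVR2B/Fc is the ligand-binding part of the activin receptor type 2B joined to an antibody Fc fragment, and A + T mice received it every week. Saline-operated sham males of the same strain and age (S, animals 2, 3 and 5) shared the fit as a source of the estimate of spread, and their levels are given without a test. NSG mice have no mature T, B or natural killer cells, and of 10 lymphocyte marker genes 0 were listed in the table, so these hearts say nothing of lymphocytes. One tumour line in an immunodeficient male host limits the groups as a model, and no library used here is labelled as ACVR2B/Fc without a tumour.

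The label of T carries a doubt. An earlier comparison of these libraries with the gene lists of the study, not repeated here, found that their differences of T from S followed those the study lists for tumour-free mice given ACVR2B/Fc rather than those for untreated tumour hosts. If the 3 libraries labelled T came from such mice, the comparison below would set mice with a tumour against mice without one, all given ACVR2B/Fc. This was not settled here. T and A + T stand below for the libraries so labelled, and each direction is that of the labelled libraries.

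Activins, myostatin and growth differentiation factor 11 bind type 2 activin receptors and signal through Smad2 and Smad3. A soluble receptor takes up these ligands, and some bone morphogenetic proteins, before they reach the cell. In skeletal muscle the pathway restrains growth and drives wasting. In the adult mouse ventricle, the fast myosin heavy chain Myh6 prevails, and load, hormones and disease shift expression towards the slow chain Myh7 together with stretch and stress genes.

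Genes were read as CPM, counts scaled to a common library total after TMM normalisation, which corrects for library composition. The 6 libraries held between 12392222 and 16279894 counts, so that 3 counts, the floor under which no level was read, were worth between 0.178 and 0.281 CPM. Of 13890 genes listed, 13364 passed the filter on low counts and were tested with edgeR's quasi-likelihood test. Where P fell under 0.05 without adjustment and the change reached 1.5-fold, 1083 genes differed between A + T and T (8.1% of those tested). Calls below use P-values adjusted by the Benjamini-Hochberg method, under 0.05. By this rule 413 genes were higher in A + T (3.09%) and 373 lower (2.79%). None of these 786 genes overlapped between the groups, and 25.4% of all genes tested did not overlap. The rises were larger than the falls, with a median log2 fold change of 0.90 among the genes that rose and -0.50 among those that fell, against 0.01 over all genes tested. More than 2-fold changes made up 167 of the rises and 43 of the falls. Values in brackets with ± are log2 fold changes of A + T over T with their standard error, from 3 hearts per group. With a whole heart as the sample, fewer cells of a type and less RNA per cell cannot be told apart for any gene below.

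The number of calls depended on single animals. Without animal 11, 130 genes were called, and the count was 332 without animal 20, 427 without animal 12, 497 without animal 21, 466 without S animal 3 and 523 without S animal 5. In all 9 fits that each left out 1 heart, 119 genes were called, 49 higher and 70 lower. Labels give no separate cultures or litters beyond the animal numbers, so the P-values measure the spread between these hearts.

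**Figure D1:**
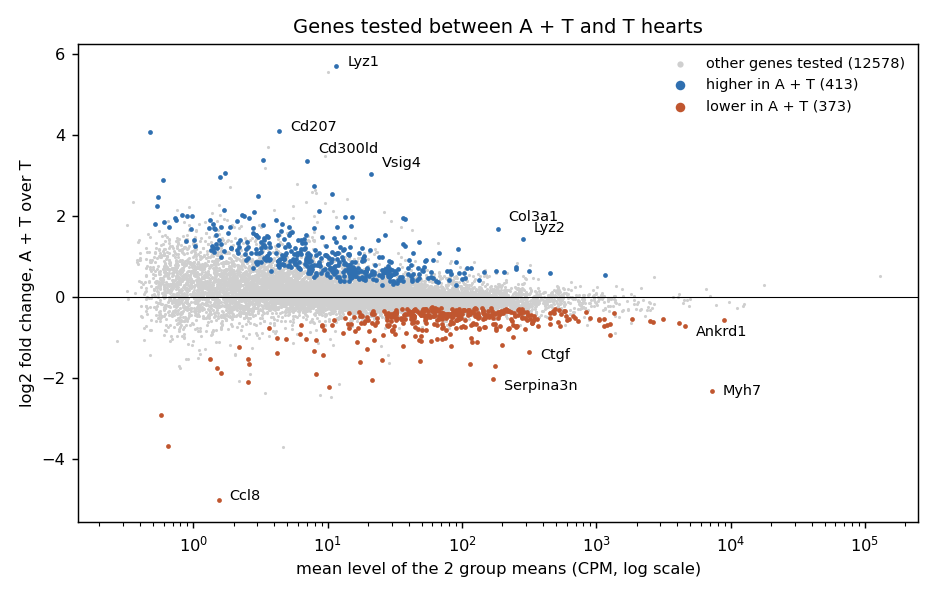
Each point is a gene tested between A + T and T, at the mean of both group means in CPM (log axis) and its log2 fold change from edgeR. Genes with an adjusted P-value under 0.05 are coloured, 413 higher and 373 lower in A + T, and the highest called genes, such as Myh7 and Ankrd1, lie below 0.

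Animals 12 and 22 carried RNA of tissue other than ventricle, and both are named for many of the results that rest on them. Scgb1a1, the secretoglobin of airway club cells, was measured at 0.0619, 79.9 and 0.468 CPM in animals 11, 12 and 15 and at 0, 0 and 1078 CPM in animals 20, 21 and 22. Only animals 12 and 22 were clearly above the floor. Sftpb, a surfactant protein of alveolar type 2 cells, was at 0.372, 0.594 and 0 CPM in T and 0.556, 0.287 and 199 CPM in A + T. Ager, a marker of alveolar type 1 cells, was at 0.495, 0.416 and 0.561 CPM in T and 0.495, 0.431 and 173 CPM in A + T. Alveolar RNA was therefore seen in animal 22, whereas the alveolar genes of animal 12 lay with those of the other hearts. Neither Scgb1a1, Sftpb nor Ager passed the filter, and the two-sided exact permutation test on log2(CPM + 0.1) gave P = 1, 0.5 and 0.7, where 0.1 is the smallest value that 3 hearts against 3 allow. Scgb3a1, another airway secretoglobin, was at 1.11, 23.4 and 1.403 CPM in T and 0.804, 0.789 and 0.431 CPM in A + T, with animal 12 alone high. All T hearts lay above all A + T hearts for Scgb3a1, and the same exact test gave P = 0.1.

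Markers of other tissue moved with the same 2 hearts. In animal 22 the neutrophil gene S100a9 reached 113 CPM against 7.05 to 11.2 CPM in the other 5, and Bmp10, a right atrial growth factor, 51.5 CPM against 0.247 to 1.86 CPM. The 12 atrial genes summed did not set animal 22 apart, at 3250 CPM against 2369 to 7284 CPM in T and 4218 to 4263 CPM in S. Animal 12 had the highest Nppa, the atrial natriuretic peptide, with 3357 CPM against 678 to 1287 CPM, and the highest Adipoq, an adipocyte hormone, with 15.6 CPM against 0.144 to 1.60 CPM. Over the whole lists, the summed level of the 6 airway epithelium genes listed ranged from 9.85 to 213 CPM in T and from 12.98 to 1270 CPM in A + T. The 9 alveolar epithelium genes listed summed to between 145 and 168 CPM in T and between 156 and 689 CPM in A + T. Animal 22 exceeded both other A + T hearts more than 4-fold for 54 genes and animal 12 both other T hearts for 16, against 1 to 8 in the other 4 hearts. Cardiomyocyte markers were abundant in every heart, summing to between 67395 and 82247 CPM in T and between 63511 and 80176 CPM in A + T.

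**Figure D2:**
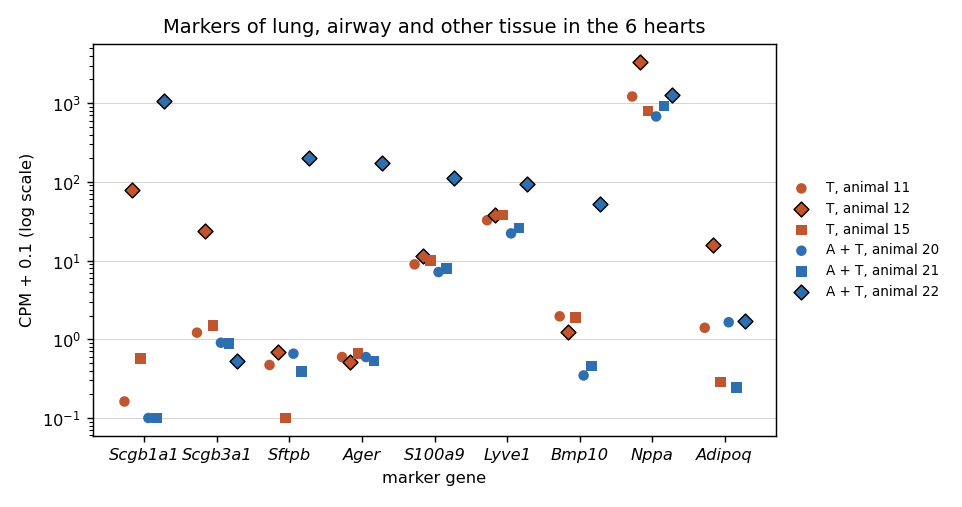
CPM + 0.1 (log axis) of 9 marker genes of airway, alveolus, neutrophil, lymphatic vessel, atrium and fat in the 3 T and 3 A + T hearts, with animals 12 and 22 drawn as outlined diamonds. Animal 22 stands apart for Scgb1a1, Sftpb, Ager, S100a9, Lyve1 and Bmp10, and animal 12 for Scgb1a1, Scgb3a1, Nppa and Adipoq.

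The comparison was repeated without animals 12 and 22, which left 2 hearts each of T and A + T, with the S hearts kept in the fit. In that fit 437 genes were higher (3.27%) and 438 lower (3.28%). Of the 786 genes called with all hearts in the fit, 539, 259 higher and 280 lower, were called again. All 786 kept their sign, which was all but fixed beforehand because none of them overlapped between the groups. Among the 413 genes that rose, animal 22 was over 2 times both other A + T hearts for 6 and animal 20 for 4. Of the 3 called genes on the alveolar list, Lyz1 and Kcnj15 had most of their A + T level in animal 22. Lyz1, a lysozyme of lung and gut that can share reads with its paralog Lyz2, was at 0.434, 0.594 and 0.187 CPM in T and 2.102, 2.22 and 64.2 CPM in A + T. It was still called without animals 12 and 22 (log2 fold change 2.67, adjusted P = 0.00841). Kcnj15, a potassium channel, was at 0.310, 0.357 and 0.468 CPM in T and 1.05, 1.08 and 7.14 CPM in A + T, and lost its call there (adjusted P = 0.0772). The share of lung RNA in the other results was not tested beyond these fits.

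Contractile and Z-disc genes were lower in A + T where they differed. Of 48 tested, 10 fell (20.8%) and 0 rose, at a median log2 fold change of -0.23. Myh7, the slow myosin heavy chain (chr14:54970684-54994626, GRCm38.p6), stood at 11599.7, 12798 and 11976 CPM in T and at 2583, 2251 and 2396 CPM in A + T. Every A + T heart lay far below every T heart, and S lay lower still, between 1254 and 1535 CPM. Its log2 fold change was -2.33 ± 0.11 (5.03-fold lower, adjusted P = 1.19e-05, edgeR), the smallest P-value of the comparison, and it was called in each fit that left out a heart. Myh6, the fast chain, which is encoded next to it and similar enough to share some reads, was at 19374, 14351 and 13767 CPM in T and 21317, 23506 and 13196 CPM in A + T. These groups overlapped and no difference was called (0.29 ± 0.22, adjusted P = 0.469). Acta1, the skeletal actin that the stressed heart makes, was at 837, 724 and 623 CPM in T and 745, 644 and 244 CPM in A + T, with overlap (adjusted P = 0.463).

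Structural genes of the Z-disc fell with Myh7. Myot, which encodes the actin crosslinker myotilin, was at 186, 165 and 131 CPM in T and 87.2, 73.5 and 64.4 CPM in A + T, without overlap (-1.10 ± 0.14, adjusted P = 0.00341). Des, the intermediate filament desmin, went from 3292, 2985 and 2776 CPM to 2206, 1999.7 and 1824 CPM (-0.59 ± 0.10, adjusted P = 0.0129). Pdlim5, a Z-disc scaffold, went from 1407, 1389.5 and 1437 CPM to 998, 864 and 715 CPM (-0.72 ± 0.12, adjusted P = 0.0115). Fhl1, Actn2, Myom2, Nrap and Xirp1 also fell, by between 0.54 and 0.79 on the log2 scale. Their hearts did not overlap either, and animal 22 had the lowest level of A + T for Actn2, Myom2, Nrap and Xirp1. The falls numbered 3 without animal 11, and 12 with 4 rises without animals 12 and 22.

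Stretch-responsive Ankrd1 and Ctgf were lower in A + T. Ankrd1 is on the contractile and Z-disc list as well, where its fall is also counted. Ankrd1, a titin-associated repressor that rises under load, was at 5394, 6306 and 5218 CPM in T and 3958, 3726 and 2702 CPM in A + T (-0.70 ± 0.15, adjusted P = 0.0237). Ctgf, a matricellular protein induced by stretch, was at 426, 545 and 398 CPM in T and 151, 174 and 209 CPM in A + T (-1.36 ± 0.16, adjusted P = 0.00269). All A + T hearts were below all T hearts for both genes. Ctgf in animals 20 and 21 lay within the S range of 139 to 179.7 CPM. Nppa was at 1216, 3357 and 795 CPM in T and 678, 916 and 1287 CPM in A + T (-0.90 ± 0.43, adjusted P = 0.251), and Nppb at 152, 244 and 173 CPM and 127, 180.5 and 134 CPM (-0.36 ± 0.22, adjusted P = 0.351). Neither passed the test, and animal 12, with its atrial markers, was the highest for both. Without animal 12 the log2 fold change of Nppa was -0.07. Of the 15 genes of this list, Ctgf, Ankrd1 and the protease gene Furin fell and Postn rose. The falls numbered 1 without animal 11 or animal 12. The single rise became 0 without S animal 3, animal 11, animal 12, animal 15, animal 20 or animals 12 and 22 together. Without animal 22 there were 2 rises.

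The promoters of Myh7 and Ankrd1 are shown because both fell and both hold the short core CATTCC read by TEAD factors, known as the M-CAT element. The 250 bases before the RefSeq start are printed 5′ to 3′ in gene direction, with each match to CATTCC on either strand in capitals. Myh7 lies at chr14:54994627-54994876 and Ankrd1 at chr19:36119845-36120094, both GRCm38.p6, minus strand. The table holds 2 starts for Myh7, and the window before the other, at chr14:54994550-54994799, holds 0 matches.
Myh7: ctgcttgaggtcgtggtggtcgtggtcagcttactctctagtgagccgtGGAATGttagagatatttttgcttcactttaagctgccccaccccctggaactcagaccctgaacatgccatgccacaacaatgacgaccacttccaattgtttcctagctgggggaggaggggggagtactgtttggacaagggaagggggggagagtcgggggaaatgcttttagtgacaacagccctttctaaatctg
Ankrd1: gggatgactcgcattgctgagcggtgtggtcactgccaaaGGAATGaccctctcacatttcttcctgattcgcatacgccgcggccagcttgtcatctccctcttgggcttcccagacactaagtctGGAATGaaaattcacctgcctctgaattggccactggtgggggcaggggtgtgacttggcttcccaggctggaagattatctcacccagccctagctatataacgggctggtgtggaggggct
Myh7 held 1 match and Ankrd1 2, and 12.6% of 32841 RefSeq promoters of this length held at least 1 and 1.02% at least 2. Of 42 sarcomere and Z-disc genes with a promoter in the table, 15 had a match at any of their starts, against 14.4% of all genes. The 15 held Myh7 and Ankrd1, and also Myh6 and Acta1, which were not called. Myot, Des, Pdlim5, Fhl1, Actn2, Myom2, Nrap and Xirp1, which fell, were not among them. Whether a match goes with a fall was not tested.

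Genes that glucocorticoids induce were the most often lower of the lists that fell. Of 25 tested, 9 fell and 0 rose, at a median log2 fold change of -0.55. Some of these falls are counted on other lists below too, such as Mt1 among the metallothionein and zinc genes and Klf15 among the atrophy genes. Fkbp5, a co-chaperone of the glucocorticoid receptor, was at 68.9, 92.8 and 55.9 CPM in T and 22.01, 25.1 and 26.1 CPM in A + T (-1.58 ± 0.23, adjusted P = 0.00706). Zbtb16, a transcriptional repressor, was at 284, 276 and 242 CPM in T and 56.1, 103 and 89.1 CPM in A + T (-1.69 ± 0.23, adjusted P = 0.00486). For both, a wide gap separated the groups, and both were called in each fit that left out a heart.

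Further members fell as well. Cdkn1a, the cell cycle inhibitor p21, was at 94.8, 77.9 and 113 CPM in T and 39.8, 45.2 and 55.2 CPM in A + T (-1.02 ± 0.16, adjusted P = 0.00894). Klf15, a transcription factor of amino acid use, was at 76.4, 116 and 72.9 CPM and 44.7, 51.1 and 61.4 CPM (-0.76 ± 0.18, adjusted P = 0.0367). Hif3a and Sult1a1 fell by 1.33 and 0.81 on the log2 scale. The familiar members Tsc22d3, Per1 and Pdk4 were not called. Tsc22d3, a mediator of the anti-inflammatory action, stood at 56.9, 86.3 and 81.2 CPM in T and 58.04, 50.01 and 92.1 CPM in A + T, with overlap. Per1, also a clock gene, ranged from 28.1 to 91.9 CPM in T and from 13.8 to 69.4 CPM in A + T. Pdk4, which restrains pyruvate oxidation, ranged from 1557 to 3865 CPM in T and from 2075 to 2555 CPM in A + T. The count of falls was 5 without animal 11, animal 12, animal 20 or animal 21, and 11 without animals 12 and 22. Without animal 22 the median was -0.87.

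Mt1 and Mt2, the metallothioneins that bind zinc and that both metals and glucocorticoids induce, fell together. They are similar neighbours on chromosome 8, and reads of one may have been counted for the other. Mt1 was at 299.9, 269.7 and 254 CPM in T and 95.7, 110.4 and 155 CPM in A + T (-1.19 ± 0.19, adjusted P = 0.0084). Mt2 was at 186, 195 and 141 CPM in T and 42.7, 46.1 and 76.7 CPM in A + T (-1.66 ± 0.33, adjusted P = 0.0199). No A + T heart reached a T heart for either gene, and animal 22 was the highest of A + T for both. The S hearts were lower still, at 44.03 to 64.1 CPM for Mt1 and 10.2 to 25.7 CPM for Mt2. Slc39a14, a zinc importer of the inflamed state, also fell, from 113, 101 and 125 CPM to 68.1, 74.5 and 56.1 CPM (-0.77 ± 0.12, adjusted P = 0.0084). Of 10 metallothionein and zinc genes tested, 3 fell and 0 rose, and 2 fell without any one of animals 11, 12, 20 and 21. The fall of Mt1 is also counted on the glucocorticoid list, so the results of both lists are not separate.

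The promoters of Mt2, Mt1 and Map3k6 are shown because they hold the core of the metal response element or of the glucocorticoid receptor site and the 3 genes fell. Map3k6, a stress kinase gene on the glucocorticoid list, was at 32.5, 44.2 and 25.9 CPM in T and 6.43, 7.18 and 11.2 CPM in A + T, without overlap. The 250 bases before each RefSeq start are given, all on the plus strand of GRCm38.p6, at chr8:94172368-94172617 for Mt2, chr8:94178839-94179088 for Mt1 and chr4:133240568-133240817 for Map3k6. The table holds 1 start for each of Mt1 and Map3k6, and their windows lie partly or wholly within the span of the gene, which other transcripts extend upstream. Capitals mark matches, on either strand, to the metal response cores TGCACNC and TGCGCNC and to the glucocorticoid palindrome of half-sites GNACA and TGTNC with 3 bases between them.
Mt2: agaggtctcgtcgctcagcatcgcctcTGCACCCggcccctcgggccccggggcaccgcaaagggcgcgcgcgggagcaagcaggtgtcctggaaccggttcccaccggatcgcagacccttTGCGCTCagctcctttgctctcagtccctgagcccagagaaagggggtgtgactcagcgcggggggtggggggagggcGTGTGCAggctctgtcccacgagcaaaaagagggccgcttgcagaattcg
Mt1: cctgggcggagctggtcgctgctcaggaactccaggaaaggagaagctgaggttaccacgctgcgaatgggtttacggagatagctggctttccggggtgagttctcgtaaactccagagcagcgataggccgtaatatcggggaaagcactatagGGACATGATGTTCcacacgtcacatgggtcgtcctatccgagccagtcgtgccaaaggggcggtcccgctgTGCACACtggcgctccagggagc
Map3k6: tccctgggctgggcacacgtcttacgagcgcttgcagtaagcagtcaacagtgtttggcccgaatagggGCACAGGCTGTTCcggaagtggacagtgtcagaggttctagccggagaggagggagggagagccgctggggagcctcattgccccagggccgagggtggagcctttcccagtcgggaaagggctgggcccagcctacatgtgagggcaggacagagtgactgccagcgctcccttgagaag
Mt2 held 3 metal response cores, and 1.26% of all promoters held 3 or more. Mt1 held 1 core and 1 palindrome, and 21.4% of all promoters held at least 1 core. The palindrome was in 0.387% of all promoters, and Map3k6 held it too. Counted by gene over any of its starts, Map3k6, Mt1 and Sgk1 had it among the 20 glucocorticoid-responsive genes with a promoter in the table, against 0.44% of all genes. Sgk1, an ion transport kinase, was not called, with 20, 34.6 and 62.4 CPM in T and 30.4, 44.1 and 55.1 CPM in A + T. A match describes these letters only.

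**Figure D3:**
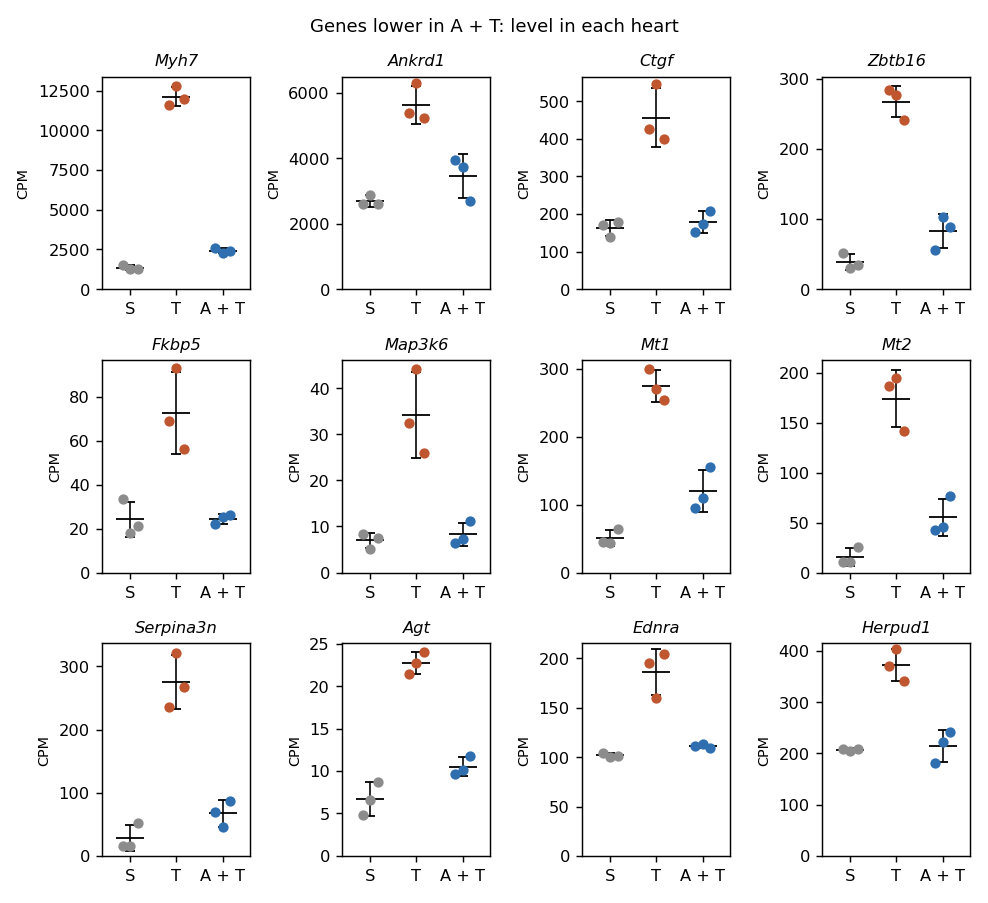
CPM (linear axis from 0) of 12 genes that were lower in A + T, in the 3 S, 3 T and 3 A + T hearts, with the mean and SD of each group as bars. In every panel the 3 A + T hearts lie below the 3 T hearts, and S hearts lie below T as well.

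Acute phase genes and the receptors that switch them on were lower in A + T where they differed. Of 30 tested, 5 fell (16.7%) and 0 rose, at a median log2 fold change of -0.32. Serpina3n, a secreted protease inhibitor of the acute phase, was at 236, 321 and 268 CPM in T and 70.1, 45.2 and 86.5 CPM in A + T (-2.03 ± 0.40, adjusted P = 0.0207). Osmr, the oncostatin M receptor, was at 65.7, 66.02 and 60.98 CPM in T and 36.4, 31.3 and 41.3 CPM in A + T (-0.82 ± 0.10, adjusted P = 0.00325). Stat3, the transcription factor behind these receptors, was at 372, 324 and 379 CPM in T and 270.1, 284 and 237 CPM in A + T (-0.44 ± 0.10, adjusted P = 0.031). None of the 3 genes overlapped between the groups, and A + T lay above S for Osmr and Stat3, the latter between 164 and 188 CPM in S. Cp, the copper carrier ceruloplasmin, fell by 0.67 and Lifr, a receptor subunit of the same family, by 0.41 on the log2 scale. Lifr was not called without animals 12 and 22 (adjusted P = 0.0608). The 5 falls became 1 without animal 11, 2 without animal 20, 3 without S animal 3, animal 12 or animal 15, and 8 without animal 22.

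Protein folding and breakdown showed smaller falls. Of 28 endoplasmic reticulum chaperones and stress genes, 5 fell (17.9%) and 25 of the 28 had a log2 fold change below 0, at a median of -0.28. Herpud1, a membrane protein of the degradation machinery, was at 371, 403 and 341 CPM in T and 181, 221 and 242 CPM in A + T (-0.79 ± 0.11, adjusted P = 0.00558). P4hb, a disulphide isomerase, was at 445, 437 and 400.1 CPM in T and 277, 281 and 320.1 CPM in A + T (-0.55 ± 0.08, adjusted P = 0.00768). Dnajc3, Hsp90b1 and the transcription factor Xbp1 each fell by 0.46 on the log2 scale. The groups did not overlap for these 5. The falls numbered 2 without animal 11, animal 15, animal 20 or animal 21, and 3 without S animal 2 or S animal 3. The Atf4-driven genes of the integrated stress response had 0 calls among 28, with 1 higher and 4 lower at an unadjusted P-value under 0.05 and 0 calls by DESeq2, the likelihood ratio test or limma-voom. Without animal 22, 2 of these 28 genes fell, and without animals 12 and 22 together 1 fell.

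On the list of atrophy genes, 5 of 29 fell (17.2%) and 0 rose, but the best known muscle ubiquitin ligases on it, Fbxo32 and Trim63, did not pass the test. Fbxo32, atrogin-1, was at 366, 352 and 441 CPM in T and 318, 356 and 274 CPM in A + T (-0.29 ± 0.14, adjusted P = 0.25). Trim63, MuRF1, was at 347, 308 and 311 CPM in T and 244, 272 and 238 CPM in A + T (-0.36 ± 0.10, adjusted P = 0.0641). Trim63 did not overlap between the groups and Fbxo32 did. Those that fell were Fbxo31 (-0.65), Bnip3, a receptor that marks mitochondria for removal (-0.70), Trim54, a microtubule-binding relative of Trim63 (-0.51), the proteasome subunit gene Psmd11 (-0.39) and Klf15. The 5 falls became 3 without animal 11, and 8 without animal 22 or animals 12 and 22 together. Among 48 autophagy and lysosome genes, 7 fell (14.6%) and 1 rose. Atg13, a subunit of the kinase complex that starts autophagy, was at 192, 169 and 186 CPM in T and 111, 113 and 105 CPM in A + T (-0.73 ± 0.07, adjusted P = 0.00248). Sqstm1, the cargo receptor p62, was at 782, 705 and 743 CPM in T and 474, 524 and 545 CPM in A + T (-0.53 ± 0.08, adjusted P = 0.00867). Both separated the groups. The single rise was Ctss, a cathepsin of macrophages. The 7 falls became 2 without animal 11, 3 without animal 20, 4 without S animal 3, animal 12 or animal 15, and 11 without animals 12 and 22 together, and the single rise became 3 without animal 22.

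Matrix genes that differed were higher in A + T, with 1 exception. Of 42 collagens and matrix genes, 13 rose (31.0%) and 1 fell, at a median log2 fold change of 0.90, the largest of the pathway lists with 20 or more genes. Col3a1, a fibrillar collagen, was at 80.8, 93.4 and 88.4 CPM in T and 447, 205 and 195 CPM in A + T (1.69 ± 0.27, adjusted P = 0.00856). Every A + T heart was above every T heart, and animal 20 was over 2 times the other A + T hearts. Sparc, a collagen-binding protein, was at 192, 192 and 197 CPM in T and 350.5, 266 and 321 CPM in A + T (0.69 ± 0.10, adjusted P = 0.00678). Lum, a proteoglycan that spaces collagen fibrils, was at 44.8, 39.9 and 44.4 CPM in T and 125, 77.6 and 71.8 CPM in A + T (1.09 ± 0.19, adjusted P = 0.0123). A + T remained below the S hearts for Sparc, which were between 373 and 391 CPM.

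Other matrix genes varied more within A + T. Postn, periostin, was at 16.4, 13.5 and 10.8 CPM in T and 63.2, 19.9 and 36.1 CPM in A + T (1.54 ± 0.33, adjusted P = 0.0276). It lost its call without animals 12 and 22 (adjusted P = 0.0513), without animal 11 (0.0862) and without animal 20 (0.0512). Of the 9 fits that left out a heart, 4 called Postn. Col1a1, the main collagen of scar and bone, was at 34.99, 33.1 and 45.1 CPM in T and 165, 75.5 and 44.5 CPM in A + T. Animal 22 overlapped with T, and Col1a1 was not called (adjusted P = 0.0643). Fn1, fibronectin, was at 36.2, 174 and 48.4 CPM in T and 69.9, 316 and 89.1 CPM in A + T, and was not called either (adjusted P = 0.463). Fn1 was highest in animal 12 of T and animal 21 of A + T. The falling gene was Thbs4, a thrombospondin of the stressed heart, at 16.8, 17.9 and 20.01 CPM in T and 13.3, 9.76 and 9.24 CPM in A + T (-0.76 ± 0.14, adjusted P = 0.0175). The 13 rises became 1 without animal 11, 6 without S animal 3 or animal 12, 8 without S animal 5, 22 without animals 12 and 22 together, and 23 without animal 22.

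Fibroblast markers moved with the matrix genes. All 10 had a log2 fold change above 0 (median 0.76), 6 rose, and their summed level ranged from 1941 to 2048 CPM in T and from 2658 to 3479 CPM in A + T. Gsn, an actin-severing protein abundant in fibroblasts, was at 987, 941 and 914 CPM in T and 1468, 1371 and 1324 CPM in A + T (0.55 ± 0.09, adjusted P = 0.00959). Tcf21, a transcription factor of fibroblast identity, was at 7.74, 6.002 and 8.32 CPM in T and 15.9, 11.3 and 15.03 CPM in A + T (0.95 ± 0.17, adjusted P = 0.0129). No heart of A + T fell within T for these genes. Dpt, Pdgfra, Lum and Col3a1 completed the 6, and the last pair is also on the matrix list. The 6 rises became 1 without animal 11, and 7 without animals 12 and 22. The part of the fibroblast level in the matrix result was not tested.

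**Figure D4:**
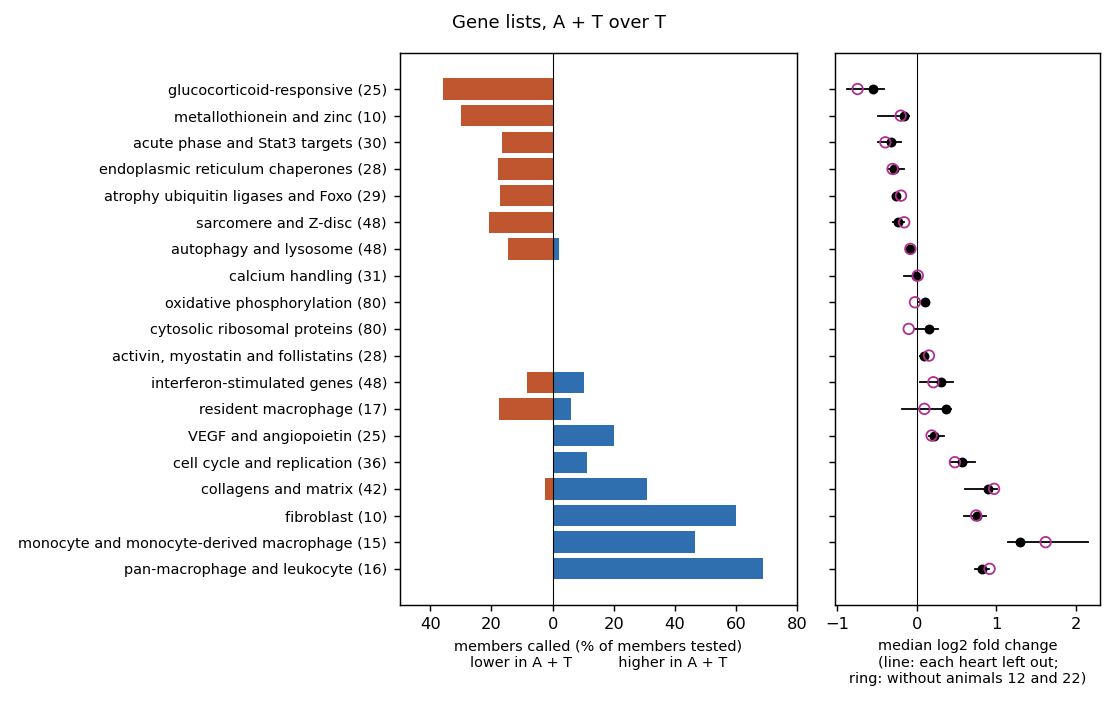
Left, the percentage of tested members (number in brackets) called higher (blue) or lower (orange) in A + T for 19 gene lists. Right, the median log2 fold change of each list as a point, its range with each heart left out as a line, and its value without animals 12 and 22 as a ring: glucocorticoid-responsive genes lie lowest at -0.55 and monocyte-derived macrophage genes highest at 1.30.

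Most pan-macrophage genes rose in A + T. Of 16 pan-macrophage and leukocyte genes, 11 rose (68.8%) and all 16 were above 0, at a median log2 fold change of 0.81. Their summed level ranged from 386 to 528 CPM in T and from 757 to 996 CPM in A + T. Csf1r, the receptor on which macrophages depend, was at 35.7, 38.9 and 38.3 CPM in T and 84.9, 68.5 and 58.9 CPM in A + T (0.91 ± 0.13, adjusted P = 0.00696). Lyz2, the macrophage lysozyme, was at 123, 200.1 and 136 CPM in T and 386, 299.9 and 558 CPM in A + T (1.44 ± 0.23, adjusted P = 0.00864). Adgre1, the F4/80 antigen, was at 9.599, 13.2 and 9.73 CPM in T and 30.4, 29.6 and 15.95 CPM in A + T (1.22 ± 0.23, adjusted P = 0.0175). None overlapped between the groups, and T lay near S, where Csf1r was between 36.02 and 44.7 CPM. Animal 22, the heart with lung RNA, was the lowest of A + T for Csf1r and Adgre1 and the highest for Lyz2. The 11 rises became 1 without animal 11, 6 without animal 20, and 7 without animal 15, and 10 without animals 12 and 22.

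Genes of monocyte-derived macrophages had the highest median of the macrophage lists. Of 15 tested, 7 rose (46.7%) and all 15 were above 0, at a median log2 fold change of 1.30. Cd300ld, an immune receptor of myeloid cells, was at 1.18, 1.19 and 1.403 CPM in T and 13.2, 12.2 and 13.2 CPM in A + T (3.37 ± 0.19, 10.3-fold, adjusted P = 2.3e-05). Its 3 A + T hearts lay close together and all exceeded S, which was between 2.54 and 3.75 CPM. Cd207, the lectin langerin, was at 0.867, 0.297 and 0.187 CPM in T and 8.78, 6.46 and 9.42 CPM in A + T (4.09 ± 0.52, adjusted P = 0.00356). Ccr2, the chemokine receptor of recruited monocytes, was at 1.796, 2.61 and 1.68 CPM in T and 7.66, 3.01 and 10.7 CPM in A + T (1.80 ± 0.41, adjusted P = 0.0337). Ccr2 lost its call without animals 12 and 22 (adjusted P = 0.0569), whereas Cd207 kept it. Gpnmb, a glycoprotein of lipid-laden macrophages, was at 2.17, 3.27 and 4.21 CPM in T and 41.1, 6.96 and 7.33 CPM in A + T, with animal 20 far above the rest (adjusted P = 0.0475). The 7 rises became 2 without S animal 3, animal 11, animal 12 or animal 20, 3 without S animal 2 or S animal 5, and 4 without animal 15, and stayed at 7 without animals 12 and 22. Alveolar macrophage markers, of which 5 of 10 were listed, summed to between 16.8 and 25.8 CPM in T and between 14.1 and 78.2 CPM in A + T, and their part in these rises was not tested.

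Leukocyte genes outside the macrophage lists were among the 15 largest rises of all genes with a mean of at least 10 counts and no overlap. Itgal, the integrin subunit of leukocytes that binds Icam1, was at 2.23, 1.902 and 1.96 CPM in T and 10.9, 10.8 and 19.5 CPM in A + T (2.75 ± 0.31, adjusted P = 0.00269). Clec7a, the beta-glucan receptor dectin-1, was at 2.97, 3.68 and 2.99 CPM in T and 13.8, 7.68 and 20.8 CPM in A + T (2.13 ± 0.32, adjusted P = 0.00722). Both were called in each fit that left out a heart, with animal 22 the highest. Kit, the stem cell factor receptor of mast cells, was at 0.681, 0.891 and 1.22 CPM in T and 2.84, 2.37 and 10.2 CPM in A + T (5.64-fold higher, adjusted P = 0.0288). Animals 20 and 21 also exceeded T for Kit, and without animals 12 and 22 its adjusted P-value was 0.0281. Its log2 fold change was 1.52 without animal 22, and without animal 11 its call was lost (adjusted P = 0.129). Adgre4, an adhesion receptor of myeloid cells, was at 0.186, 0.713 and 0.0935 CPM in T and 2.78, 2.44 and 3.26 CPM in A + T (2.96 ± 0.58, adjusted P = 0.0197). Neutrophil markers, of which 7 were tested, had 0 calls by edgeR and DESeq2 and 1 fall by the likelihood ratio test and by limma-voom. At an unadjusted P-value under 0.05, 1 was higher and 1 lower. They summed to between 63.4 and 72.9 CPM in T and between 32.1 and 276 CPM in A + T, the highest in animal 22.

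Resident macrophage genes went in both directions. Of 17 tested, 1 rose and 3 fell, at a median of 0.37 that was -0.18 without animal 22. Vsig4, a complement receptor of tissue macrophages, was at 3.47, 6.299 and 3.93 CPM in T and 45.7, 34.2 and 33.4 CPM in A + T (3.03 ± 0.29, 8.18-fold, adjusted P = 0.00248). Its level in S was between 3.92 and 8.31 CPM, near T. Mgl2, a galactose lectin, was at 7.49, 4.22 and 6.55 CPM in T and 1.42, 1.79 and 3.76 CPM in A + T (-1.37 ± 0.34, adjusted P = 0.043), and its near-identical neighbour Clec10a, with which reads may be split, also fell. Ccl8, a monocyte chemokine, was at 2.79, 3.98 and 2.24 CPM in T and at or under 3 counts in every A + T heart, at least 15.4-fold lower against 3 counts per library. Lyve1, Cd163, Mrc1, Folr2 and Timd4, the scavenger and phagocytic receptors of long-lived macrophages, were not called. Timd4 was at 2.91, 3.86 and 1.496 CPM in T and 6.06, 7.25 and 4.804 CPM in A + T (adjusted P = 0.0558). Lyve1, also a lymphatic gene, was at 32.5, 37.9 and 37.97 CPM in T and 22.1, 25.8 and 93.98 CPM in A + T, where animal 22 was above and the other 2 hearts below all of T. Without animal 22, 3 genes of the list rose and 4 fell.

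Chemokine, complement and interferon genes held calls in both directions. Log2 fold changes above 0 were held by 21 of 26 chemokines and receptors, 18 of 24 complement genes and 28 of 48 interferon-stimulated genes. Of 26 chemokines and receptors, 6 rose (23.1%) and 2 fell. Cxcr4, the receptor for Cxcl12, was at 1.36, 1.54 and 2.43 CPM in T and 7.97, 4.02 and 7.57 CPM in A + T (1.91 ± 0.31, adjusted P = 0.00918). Of 24 complement genes, 5 rose (20.8%), among them Vsig4 and C1qc, and 2 fell. The falling pair was Masp1, a lectin pathway protease (-0.70), and Clu, clusterin, which went from 1524, 2218 and 1271 CPM to 994, 775 and 849 CPM (-0.94 ± 0.18, adjusted P = 0.0186). Of 48 interferon-stimulated genes, 5 rose (10.4%) and 4 fell (8.33%). Gbp6, a guanylate-binding protein of a family with similar copies, fell from 94.3, 99.7 and 104 CPM to 52.97, 42.6 and 52.7 CPM, whereas Gbp5 rose from 3.47, 3.62 and 4.21 CPM to 6.68, 6.17 and 6.59 CPM. The 6 chemokine rises became 0 without animal 11, 2 without animal 20, and 3 without animal 21. The 5 complement rises became 1 without animal 11, 2 without animal 20, 3 without S animal 2, S animal 3, S animal 5, animal 12 or animal 15, and 8 without animals 12 and 22 together. The 5 interferon rises became 0 without animal 11, and 2 without animal 15, and the 4 falls 2 without S animal 3, S animal 5, animal 11, animal 12, animal 15, animal 20 or animal 21, 9 without animals 12 and 22 together, and 10 without animal 22.

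Vascular peptide systems split by ligand. Apln, the peptide apelin, was at 1.05, 0.951 and 0.842 CPM in T and 3.15, 3.73 and 4.68 CPM in A + T (2.00 ± 0.27, adjusted P = 0.00432). Aplnr, its endothelial receptor, was at 8.67, 4.75 and 7.58 CPM in T and 22.4, 18.4 and 17.4 CPM in A + T (1.48 ± 0.22, adjusted P = 0.00736). All A + T hearts were above T and below S for both. Agt, the precursor of angiotensin, went the other way, from 21.4, 22.8 and 24.03 CPM to 9.64, 10.1 and 11.8 CPM (-1.11 ± 0.18, adjusted P = 0.00867). Ednra, the endothelin receptor of muscle cells, fell from 195, 159.8 and 204 CPM to 111, 113 and 109 CPM (-0.74 ± 0.09, adjusted P = 0.00341). These 4 genes were called in each fit that left out a heart and without animals 12 and 22. With Nos2, the inducible nitric oxide synthase, 3 of 13 genes of this list rose (23.1%) and 2 fell (15.4%), and each fit that left out a heart called 2 or 3 rises and 2 falls.

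Angiogenic and dividing-cell genes were higher where they differed. Of 25 VEGF and angiopoietin genes, 5 rose and 0 fell. Angpt2, a ligand released by sprouting vessels, was at 2.11, 2.44 and 1.22 CPM in T and 4.08, 4.52 and 5.67 CPM in A + T (1.27 ± 0.25, adjusted P = 0.0195). Nrp1, a VEGF co-receptor, was at 124, 146 and 152 CPM in T and 238, 242 and 178 CPM in A + T (0.64 ± 0.12, adjusted P = 0.0186). Neither gene overlapped between groups. Endothelial markers had a median of 0.41 with 1 of 10 called, Cdh5. Their summed level ranged from 927 to 1158 CPM in T and from 1172 to 1551 CPM in A + T, and its part in these rises was not tested. Among 36 cell cycle genes 33 were above 0, at a median of 0.57, and 4 rose (11.1%). Ccnd1, cyclin D1, was at 10.5, 11.6 and 12.2 CPM in T and 19.3, 20.2 and 22.7 CPM in A + T (0.86 ± 0.09, adjusted P = 0.00269). Mki67, a marker of cycling cells, was at 4.34, 3.33 and 3.65 CPM in T and 6.98, 8.75 and 5.85 CPM in A + T (adjusted P = 0.0426). Mki67 was not called without animals 12 and 22 (adjusted P = 0.0541), and Ccnd1 was. The 5 VEGF rises became 1 without animal 11, and 3 without S animal 3, animal 12, animal 20 or animal 21. The 4 cell cycle rises became 1 without animal 11 or animal 12, and 2 without S animal 2, S animal 3, animal 21 or animals 12 and 22 together.

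**Figure D5:**
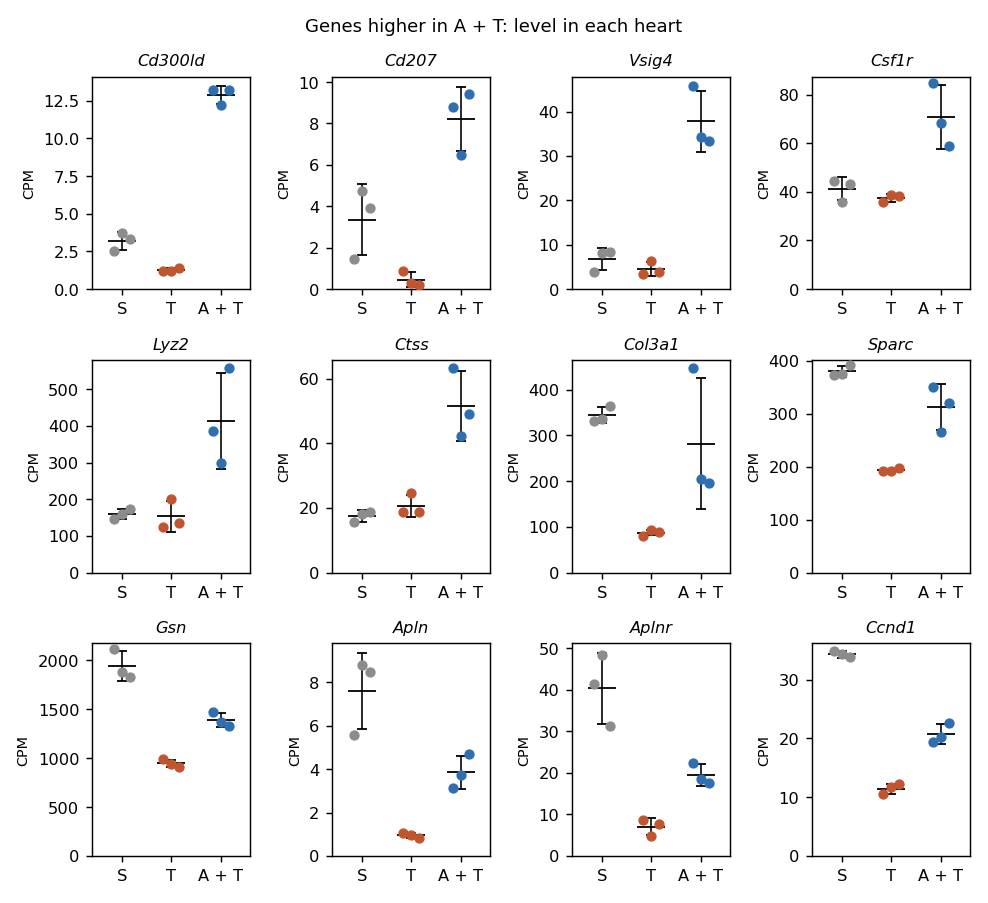
CPM (linear axis from 0) of 12 genes that were higher in A + T, in the 3 S, 3 T and 3 A + T hearts, with the mean and SD of each group as bars. In every panel the 3 A + T hearts lie above the 3 T hearts, and A + T exceeds S for Cd300ld, Cd207, Vsig4, Csf1r, Lyz2 and Ctss but not in every heart for Col3a1, Sparc, Gsn, Apln, Aplnr or Ccnd1.

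Signalling and membrane genes of the heart muscle cell were called one by one rather than as lists. Prkar1a, the regulatory subunit that holds protein kinase A inactive, was at 1443, 1367 and 1604 CPM in T and 1004, 909.8 and 818 CPM in A + T (-0.69 ± 0.10, adjusted P = 0.00696). It was called in each fit that left out a heart, and of A + T animal 22 lay within S, which was between 786 and 849.7 CPM, and the others above it. Hcn2, a pacemaker channel, rose from 14.6, 15.3 and 15.5 CPM to 27.6, 24.7 and 18.2 CPM (0.64 ± 0.14, adjusted P = 0.027). Groups did not overlap for Hcn2, and of 34 ion channel and conduction genes 2 rose and 3 fell. These 2 rises became 0 without animal 11 or animal 12, 1 without animal 15, animal 20 or animal 21, and 4 without animal 22 or animals 12 and 22 together, and the 3 falls 0 without animal 11, and 1 without animal 12. Hcn2 was not among the genes called without animal 11 (adjusted P = 0.109). Slc38a2, an amino acid transporter induced by starvation, was at 311, 234 and 408 CPM in T and 196, 192 and 183 CPM in A + T (-0.74 ± 0.16, adjusted P = 0.029). Gstm1, a glutathione transferase, was at 326, 308 and 342 CPM in T and 219, 225 and 246 CPM in A + T (-0.50 ± 0.08, adjusted P = 0.0084). Both fell without overlap, and Gstm1 was called in each fit that left out a heart.

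The 15 largest falls held genes outside the groups above as well. Syt12, a synaptotagmin of vesicle traffic, was at 11.6, 15.4 and 11.97 CPM in T and 3.89, 3.01 and 3.57 CPM in A + T (-1.89 ± 0.22, adjusted P = 0.00269). Timp4, a metalloproteinase inhibitor abundant in heart, was at 35.7, 46.6 and 31.3 CPM in T and 8.28, 11.1 and 19.4 CPM in A + T (-1.55 ± 0.35, adjusted P = 0.0329). For Timp4 and for Fam107a, at 25.5, 33.9 and 18.6 CPM in T and 5.56, 4.66 and 15.3 CPM in A + T, animal 22 lay closest to T. Without animals 12 and 22 their adjusted P-values were 0.0152 and 0.00419.

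Iron and small heat shock genes held a few calls each. Slc40a1, the iron exporter ferroportin, was at 6.19, 6.42 and 6.08 CPM in T and 14.6, 10.9 and 12.6 CPM in A + T (1.03 ± 0.16, adjusted P = 0.00754). Steap4, a metalloreductase, was at 19.5, 18.4 and 21.04 CPM in T and 32.02, 33.1 and 28.02 CPM in A + T (0.66 ± 0.10, adjusted P = 0.00754). Both rose without overlap, and with Cp, which fell, they made up the calls among 21 iron genes. Hspb7, a small heat shock protein of heart muscle, was at 5611, 4609 and 4811 CPM in T and 3253, 3501 and 2847 CPM in A + T (-0.65 ± 0.12, adjusted P = 0.0175). Hspb6 and Dnajb4 also fell, 3 of 31 in all, and these falls became 0 without animal 11 or animal 20.

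Fuel genes showed few calls by edgeR. Lpl, the lipoprotein lipase that frees fatty acids for muscle, was at 10708, 9581 and 11612 CPM in T and 7687, 7785 and 5925 CPM in A + T (-0.58 ± 0.14, adjusted P = 0.039). Ppargc1a, the coactivator of mitochondrial genes, was at 375, 213 and 370 CPM in T and 191, 177 and 118 CPM in A + T (-0.97 ± 0.23, adjusted P = 0.0367). The groups did not overlap for either, though animal 12 was close to A + T for Ppargc1a. Of 45 fatty acid oxidation genes 1 rose and 3 fell, and of 40 glucose uptake and glycolysis genes 3 fell. The fatty acid falls became 0 without animal 11, and 1 without S animal 2, S animal 3, S animal 5, animal 15, animal 20 or animal 21, and the rise became 0 without animal 11 or animal 12. The glycolysis falls became 0 without animal 11, 1 without S animal 2, S animal 3, S animal 5, animal 15 or animal 20, and 7 without animals 12 and 22 together. Ldha, lactate dehydrogenase, fell by 0.36 on the log2 scale. Of 80 oxidative phosphorylation genes, 0 were called, at a median of 0.11. At an unadjusted P-value under 0.05, 14 of them were higher, and DESeq2 called 4, the likelihood ratio test 2 and limma-voom 0. Mitochondrial and cytosolic ribosomal proteins had 0 calls among 74 and 80 by edgeR and by the other 3 tests, with 7 and 4 higher at an unadjusted P-value under 0.05. Without animal 15, 8 oxidative phosphorylation and 4 cytosolic ribosomal genes were called higher. Cytosolic ribosomal genes gave 1 fall without animal 22 and 3 without animals 12 and 22.

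Genes of the pathway that ACVR2B/Fc binds were not called. Of 28 activin, myostatin and follistatin genes, 0 passed edgeR's adjusted threshold, at a median of 0.09. At an unadjusted P-value under 0.05, 6 were higher and 4 lower, and DESeq2 called 3, the likelihood ratio test 2 and limma-voom 0. Acvr2b, the receptor itself, was at 2.17, 1.49 and 2.06 CPM in T and 2.102, 3.301 and 3.08 CPM in A + T (0.57 ± 0.26, adjusted P = 0.228). Inhba, which encodes the subunit of activin A, was at 1.55, 1.96 and 1.68 CPM in T and 0.927, 1.79 and 1.72 CPM in A + T (-0.23 ± 0.34, adjusted P = 0.732). Acvr2a, the partner receptor, ranged from 31.6 to 33.7 CPM in T and from 24.7 to 39.2 CPM in A + T. Mstn, myostatin, was near 1 CPM in every heart, at 0.867, 1.07 and 1.403 CPM in T and 1.11, 1.29 and 0.862 CPM in A + T (-0.01 ± 0.48). Acvr2b, Inhba, Acvr2a and Mstn overlapped between the groups. Fstl3, an extracellular activin inhibitor, was at 6.32, 8.02 and 5.61 CPM in T and 3.59, 3.23 and 5.54 CPM in A + T, without overlap but not called (adjusted P = 0.115). Smad7, a feedback inhibitor, was at 26.3, 27.5 and 27.2 CPM in T and 17.1, 22.3 and 26.2 CPM in A + T, where animal 22 was level with T (adjusted P = 0.205). Without animals 12 and 22, Fstl1, Smad3, Ltbp1 and Ltbp4 were called higher, 4 of the 28. Without animal 21, 1 gene of this list was called higher, and without animal 22, 4 were higher and 2 lower. In the neighbouring BMP list, 2 of 28 genes rose, the Smad target Id2 (0.52) and the BMP regulator Bmper (0.74). The 2 rises became 0 without S animal 2, animal 11, animal 15, animal 20 or animal 22, and 1 without S animal 3, S animal 5, animal 12, animal 21 or animals 12 and 22 together. Bmper lost its call without animals 12 and 22 (adjusted P = 0.175), and Id2 kept it there (adjusted P = 0.0226). Without animal 22, 0 rose and 1 gene fell.

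Calcium handling was not called either. Of 31 genes, 0 passed, 3 were higher at an unadjusted P-value under 0.05, and DESeq2 and the likelihood ratio test each called 1 and limma-voom 0. Without animal 15, animal 22 or animals 12 and 22, 1 was called higher. Atp2a2, the sarcoplasmic calcium pump, was at 13464, 13048 and 13347 CPM in T and 12852, 13205 and 9287 CPM in A + T (-0.17 ± 0.13, adjusted P = 0.487). Pln, its inhibitor phospholamban, was at 8127, 8247 and 8339.6 CPM in T and 8126, 7366 and 6101 CPM in A + T (-0.19 ± 0.12, adjusted P = 0.357). Animal 22 was the lowest heart for both, and animals 20 and 21 lay within or just below the range of T.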

How the data were processed

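Hearts of 9 male NSG mice were profiled by mRNA sequencing, 3 per group. Rn45s made up 4.57%, 5.18% and 19.5% of the counts in animals 11, 12 and 15. In animals 20, 21 and 22 it made up 8.60%, 17.4% and 19.6%. The deposited counts are whole reads per gene, which the authors made by alignment with STAR to mm10 and strand-specific counting of uniquely placed read pairs with featureCounts on refGene, before any normalization. The deposited log2 values are the authors' normalized expression of the same libraries and served as an alternative only. Groups follow the sample labels.

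A gene was dropped when over 4 libraries held it under 0.5 CPM, which removed 526 of 13890. The counts of all 9 hearts were fitted together with edgeR 4.0.16 (TMM, quasi-likelihood test), and A + T was contrasted with T, 3 hearts each, with Benjamini-Hochberg adjustment over the 13364 genes tested. Standard errors were derived from the fold change and its F statistic. The script was tested on simulated data. Alternatives were limma 3.58.1 (voom, and on the log2 values), DESeq2 1.42.0, the likelihood ratio test of edgeR, 3 other scalings, other filters, fewer samples, a lung marker covariate, totals without Rn45s, and each heart left out. R 4.3.3, Python 3.11.15 and matplotlib 3.10.9 were used.

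Named genes were the 15 largest rises and falls with a mean of at least 10 counts and no overlap, up to 4 called members of each list by P-value with members of a defining role, the 10 highest called genes, and markers of other tissue. Called list members beyond these, and Sgk1, Fstl1, Smad3, Ltbp1 and Ltbp4, were named after their values were seen. The comparison, its lists and its members were chosen with earlier results of these data known. Counts and floors carry counting error only. Gene positions and promoters are from RefSeq, GRCm38.p6.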

Additional observations from a re-analysis of the deposited data

How the results depend on the processing

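Against 786 genes past the adjusted threshold, DESeq2 called 1200, the likelihood ratio test 1195, a fit with the lung marker covariate 1293, library totals without further scaling 438, and a fit of T and A + T alone, which has fewer samples, 217. An adjusted threshold of 0.1 gave 1499. Without a fold limit, 2994 genes had an unadjusted P-value under 0.05, against 1083 with it. Leaving out each heart gave between 130 and 1006. The share of calls that were rises, 52.5%, was 65.5% under upper quartile scaling (497 higher, 262 lower), 71.7% under totals alone (314 and 124) and 41.5% without animal 11. Lyve1, which was not called, turned from 0.39 to -0.60 on the log2 scale without animal 22, and reached 0.74 without animal 20. No other named gene that was called, with all hearts or under an alternative, turned its sign in these settings. For genes called with all hearts, this was all but fixed where hearts were left out, because none of them overlapped between the groups. The median of resident macrophage genes, 0.37, was -0.18 without animal 22 and -0.15 with the lung covariate, and list medians near 0, such as that of calcium handling, changed sign with the scaling. The causes were not tested. No paired analysis was possible because the labels give the groups no shared replicate numbers. Genes near the floor, such as Ccl8, are limited by depth.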
